A study of Mus musculus with 4 samples.

Results

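The nuclear genes of the respiratory chain are the protein-coding genes of the nucleus that encode the subunits of complexes I to V of the inner mitochondrial membrane, with the Ndufaf assembly factors of complex I. They were chosen by symbol from GENCODE release M21 (symbols beginning Nduf, Uqcr, Cox4 to Cox8 or Atp5, with Sdha, Sdhb, Sdhc, Sdhd and Cyc1), which gave 94 genes among 21829 protein-coding nuclear genes. Foxr2, a forkhead transcription factor that drives a brain tumor of early childhood, was mapped on chromatin in these cells by CUT&RUN, in which an antibody guides a nuclease to a protein so that the DNA around it is cut out and sequenced. The antibody recognized the V5 tag that the Foxr2 vector carries. It was used on 2 replicates of a Foxr2 p53LOF neurosphere line, grown from a mouse tumor made by in utero electroporation (IUE) of Foxr2 with loss of function of p53, and on 2 replicates of a V5 control line from another IUE model, which lacks the tag and has the genotype H3.3G34R. All 4 samples were of strain C57BL/6J and were lightly cross-linked with formaldehyde. The groups therefore differ in genotype and tumor model as well as in the tag, which cannot be told apart here. The Foxr2 p53LOF samples are 2 replicates of 1 line, and nothing states that they came from separate cultures.

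The respiratory chain passes electrons from NADH through complex I, or from succinate through complex II, to complex III and then through cytochrome c to oxygen at complex IV, and complex V uses the resulting proton gradient to make ATP. Most of the subunits are encoded in the nucleus, and their genes are spread over the chromosomes. Many of these promoters are known to be used by nuclear respiratory factor 1 (NRF1), by the ETS-family factor GABP (also called nuclear respiratory factor 2) and by YY1. Several complex IV subunits exist as a ubiquitous form and as forms restricted to muscle, lung or testis, encoded by separate genes.

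Each library has its own list of peaks, with a fold enrichment for each, the fragments at the summit relative to the background of that library. The Foxr2 p53LOF lists held 31909 and 38580 peaks, and the V5 control lists 308 and 124. The lists give no read totals, and fold values of 6 rested on few fragments: a fold above 6 needed 13 in Foxr2 p53LOF replicate 1 and 18 in replicate 2. A promoter site below is a stretch covered by peaks of both Foxr2 p53LOF replicates that lies within 1 kb of a transcript start. Each peak had to have a fold and a −log10 q above 6, a length under 10000 bp and no control peak over it. A gene is ranked by its lower fold, the lower of the folds of the replicates at its site. All coordinates are in GRCm38 (mm10), and intervals given with folds are exact 95% Poisson intervals of the fragments at the summit, which cover counting error only.

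Before any filter, 87 of the 94 respiratory chain genes had a peak within 1 kb of a start in Foxr2 p53LOF replicate 1 and 88 in replicate 2. None had one in V5 control replicate 1 or 2. Over all protein-coding nuclear genes, the share with such a peak was 53.4% in Foxr2 p53LOF replicate 1, 54.4% in replicate 2, 0.124% in V5 control replicate 1 and 0.0870% in V5 control replicate 2. The groups did not overlap, and the difference of 87.5 genes between their means had p = 0.333 in a two-sided exact permutation test over the 4 libraries, the smallest p that 2 against 2 can give. A reproducible promoter site was present at 72 of the 94 genes (76.6%), against 39.3% of all protein-coding nuclear genes (8588 of 21829).

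The sequences shown here come from the RefSeq sequence of GRCm38.p6, in the direction of each gene. No motif in them was tested against the peaks. The ubiquitous and the muscle form of complex IV subunit 6a are shown because they differ both in peaks and in motifs. The NRF1 motif was found at 1 of the 7 ubiquitous partners and 0 of the 8 restricted isoforms, and the MEF2 motif at 0 and 1, so this is the only pair with that contrast. The Cox6a1 stretch, chr5:115348982-115349129 on the minus strand, and the Cox6a2 stretch, chr7:128206388-128206537 on the minus strand, both end at the base before the commonest transcript start and lie outside annotated exons. Capitals mark an NRF1 motif (GCGCATGCG, here in both directions) in Cox6a1 and a motif of the muscle factor MEF2 (CTAAAAATA) in Cox6a2.
Cox6a1: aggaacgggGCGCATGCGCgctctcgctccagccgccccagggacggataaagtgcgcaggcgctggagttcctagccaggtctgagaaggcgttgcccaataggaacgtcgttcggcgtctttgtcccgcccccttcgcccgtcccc
Cox6a2: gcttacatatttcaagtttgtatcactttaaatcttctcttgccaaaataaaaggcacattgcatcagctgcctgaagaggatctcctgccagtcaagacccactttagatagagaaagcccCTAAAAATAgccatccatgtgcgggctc
The NRF1 motif of Ndufa11, the member with the second highest fold, is shown with the bases between it and the start, at chr17:56717686-56717766 on the plus strand. The motif begins at -65 bp from the start, and the peak summits lay at -639 bp in replicate 1 and -604 bp in replicate 2.
Ndufa11: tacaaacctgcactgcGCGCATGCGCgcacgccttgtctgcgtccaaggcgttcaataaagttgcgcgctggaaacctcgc
The ETS motif (CCGGAAG, or CTTCCGG on the other strand, in capitals) is shown where it lies closest to the start in the 4 ubiquitous isoform genes that carry it, Cox4i1 (chr8:120668261-120668284, plus strand), Cox6a1 (chr5:115348959-115348982, minus strand), Cox6b1 (chr7:30626127-30626150, minus strand) and Cox8a (chr19:7217606-7217629, minus strand). It is also shown in 2 of the 10 members with the highest folds, Uqcrq (chr11:53430811-53430834, minus strand) and Uqcrh (chr4:116075065-116075088, minus strand).
Cox4i1: gtcttggtCTTCCGGttgcgggcc
Cox6a1: catttccgCTTCCGGcgcgccggt
Cox6b1: tctcgcagCTTCCGGccagtcgga
Cox8a: ccgaaataCTTCCGGctcgggcgt
Uqcrq: cgctcctcCCGGAAGtgacgggcg
Uqcrh: atgccgcaCTTCCGGccaggtcgc
The YY1 motif (AANATGGC, in capitals) overlaps the start of Ndufb5 (chr3:32736982-32737005, plus strand), the member with the highest fold. The peak summits of Ndufb5 lay at -406 bp in replicate 1 and -368 bp in replicate 2.
Ndufb5: cctcactcAATATGGCctcctcta

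Among the 72 genes with a site, fold enrichment was moderate and spread over the whole range. The median lower fold was 9.72 (quartiles 7.84 and 12.8), and it was 10.2 over all 8588 genes with a site. The median fold was 10.2 in replicate 1 and 11.5 in replicate 2, and 10.6 and 12.2 over all genes with a site. Replicate 2 had the higher fold at 51 of the 72 genes (70.8%), as at 75.2% of all genes with a site. Over the 72 genes, replicate 1 and replicate 2 folds had a Spearman correlation of 0.71, which is a description, since the genes share the libraries. Of the 72 genes, 9 (12.5%) were in the top 10% of all genes with a site by lower fold.

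**Figure D1:**
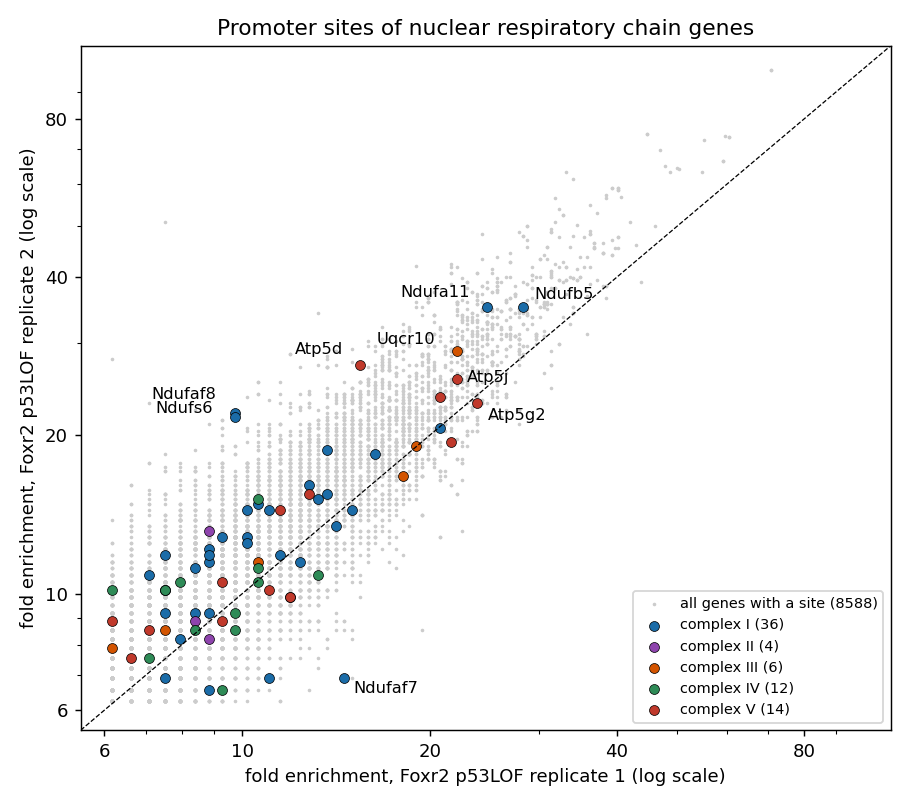
Fold enrichment at the promoter site in Foxr2 p53LOF replicate 1 (x axis) and replicate 2 (y axis), both on log scales. Grey points are all 8588 genes with a site, colored points the 72 respiratory chain genes by complex, and the dashed line marks equal folds. The respiratory chain genes run through the cloud of all genes, from 6.19 at Cox7b, Atp5a1 and Uqcr11 to 28.3 at Ndufb5 in replicate 1.

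The highest folds belonged to genes of complexes I, III and V, which also held genes with low folds or no site. Ndufb5, an accessory subunit of the membrane arm of complex I, had a fold of 28.3 (21.8 to 36.1) in replicate 1 and 35.2 (28.8 to 42.4) in replicate 2, at chr3:32735969-32738297. This was above 97.9% of genes with a site. Ndufa11, another membrane-arm subunit, had folds of 24.7 (18.7 to 32.1) and 35.2 (28.8 to 42.4) at chr17:56716352-56718068. The intervals of these neighbours in rank overlap in both replicates.

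Complex V held 4 of the 10 highest members. Atp5g2, which encodes the c subunit of the rotor ring, had folds of 23.9 and 23.0. Atp5g1, which encodes the same mature subunit, had 20.8 and 23.7. The third gene for this subunit, Atp5g3, did not reach the filter in both replicates, with folds of 7.95 and 5.91. Atp5j, coupling factor 6 of the stator stalk, had folds of 22.1 and 25.6, and Atp5f1, subunit b of that stalk, had 21.7 and 19.4. At the other end, Atp5a1, the alpha subunit of the catalytic head, had only 6.19 (3.50 to 10.3) and 8.87 (5.91 to 12.8), while Atp5b, the beta subunit, had 11.0 and 10.2.

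Complex III gave 3 of the 10. Uqcr10, a small subunit, had folds of 22.1 and 28.9. Uqcrq, which encodes another small subunit, had 19.0 and 19.1. Uqcrh, the hinge protein that contacts cytochrome c1, had 18.1 (13.1 to 24.5) and 16.8 (12.5 to 22.0). The tenth member, Uqcrh, and the first, Ndufb5, overlap in their intervals in replicate 1 but not in replicate 2.

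The lowest folds among genes with a site were those of Atp5a1, Uqcr11, Cox7b, Cox4i1 and Ndufaf4. Uqcr11, a small complex III subunit, had folds of 6.19 and 7.88. Cox7b, the X-linked subunit of complex IV, had 6.19 and 10.2. Genes with a site on the X chromosome had a median lower fold of 7.88, the lowest of any chromosome, and the part of this in the value of Cox7b was not tested. Ndufaf4, a complex I assembly factor, had folds of 8.84 and 6.57. At 13 fragments in replicate 1, Atp5a1, Uqcr11 and Cox7b stood at the fewest fragments that pass the filter.

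Most replicate pairs were close, but a few were not. The replicate 2 fold was more than 1.5 times that of replicate 1 at 6 of the 72 genes with a site, and the reverse held at 2. Ndufs6, an accessory subunit of complex I, had folds of 9.72 (6.18 to 14.6) and 21.7 (16.8 to 27.6). Ndufaf8 had 9.72 and 22.0, and Ndufaf7, another assembly factor, went the other way with 14.6 (10.1 to 20.4) and 6.90 (4.34 to 10.5). At Ndufs6 the summit of the replicate 2 peak lay at -2622 bp from the start, outside the promoter window, and in replicate 1 it lay at -319 bp.

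Every complex had a site at more than 39.3% of its genes, the share of all genes. Complex I had a site at 36 of 44 genes with a median lower fold of 9.79. Its nuclear core subunits, which form the electron path of the matrix arm, had a site at 6 of 7, its accessory subunits 24 of 29 and the Ndufaf assembly factors 6 of 8. Complex II, succinate dehydrogenase, had a site at all 4 genes, in the narrow range of 7.51 (Sdhb) to 8.84 (Sdha). Complex III had 6 of 9 with a median of 13.7, and complex V 14 of 17 with a median of 10.8. Complex IV had 12 of 20 with a median of 8.47, and its highest lower fold was 10.8, at Ndufa4. No difference between complexes was tested.

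**Figure D2:**
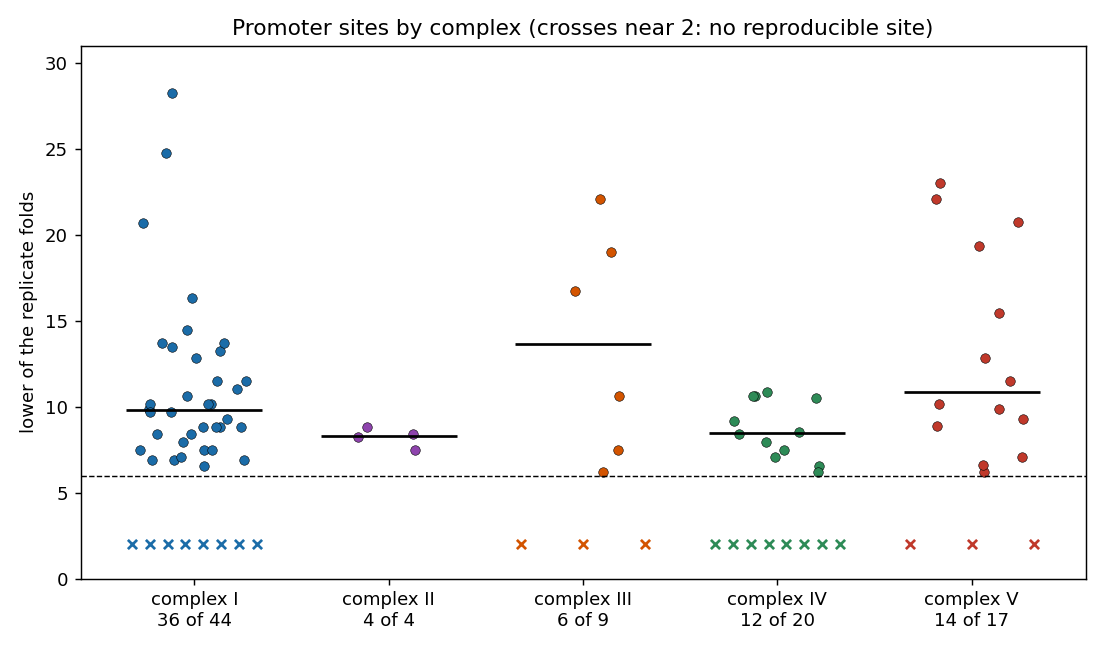
Lower of the replicate folds at each respiratory chain gene with a promoter site, by complex. Points are genes, horizontal lines the medians (9.79, 8.30, 13.7, 8.47 and 10.8), the dashed line the minimum fold of 6, and crosses, drawn at an arbitrary height, the genes with no site. The 8 crosses of complex IV are the tissue-restricted isoforms.

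All genes without a site in complex IV were tissue-restricted isoforms. The 7 ubiquitous partners all had a site, and the 8 restricted isoforms had none. Cox4i1, the common form of subunit 4, had folds of 9.28 and 6.57, and Cox4i2, its lung form, had no peak. Cox6a1 had 7.95 (4.82 to 12.5) and 10.5 (7.25 to 14.8), and Cox6a2, the heart and skeletal muscle form, had no peak. Cox6b1 had 7.07 and 7.56, whereas Cox6b2, the testis form, had weak peaks of 4.86 (2.56 to 8.57) and 4.60 (2.60 to 7.63). These counts rest on values around the minimum, since the intervals of Cox6b1 and Cox6b2 overlap.

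Cox7a2 had folds of 9.72 and 8.54, and Cox7a1, the heart and muscle form, had peaks of 3.98 and 3.94, which also fail the minimum on q. Cox7b had 6.19 and 10.2, and its testis form Cox7b2 had no peak, the nearest peaks being 346233 bp and 581677 bp away. Cox8a had 7.51 and 10.2, and neither Cox8b, of muscle and brown fat, nor Cox8c, of testis, had a peak. Ndufa4, a subunit first assigned to complex I and now to complex IV, had 13.3 and 10.8. Ndufa4l2, its hypoxia-induced relative, had no peak within 1 kb, although peaks with folds of 15.9 and 12.5 lay 1437 bp and 1306 bp from its starts. In all, 6 of the 8 restricted isoforms had no listed peak in either replicate, where the lowest fold listed was 3.09 in replicate 1 and 2.96 in replicate 2.

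**Figure D3:**
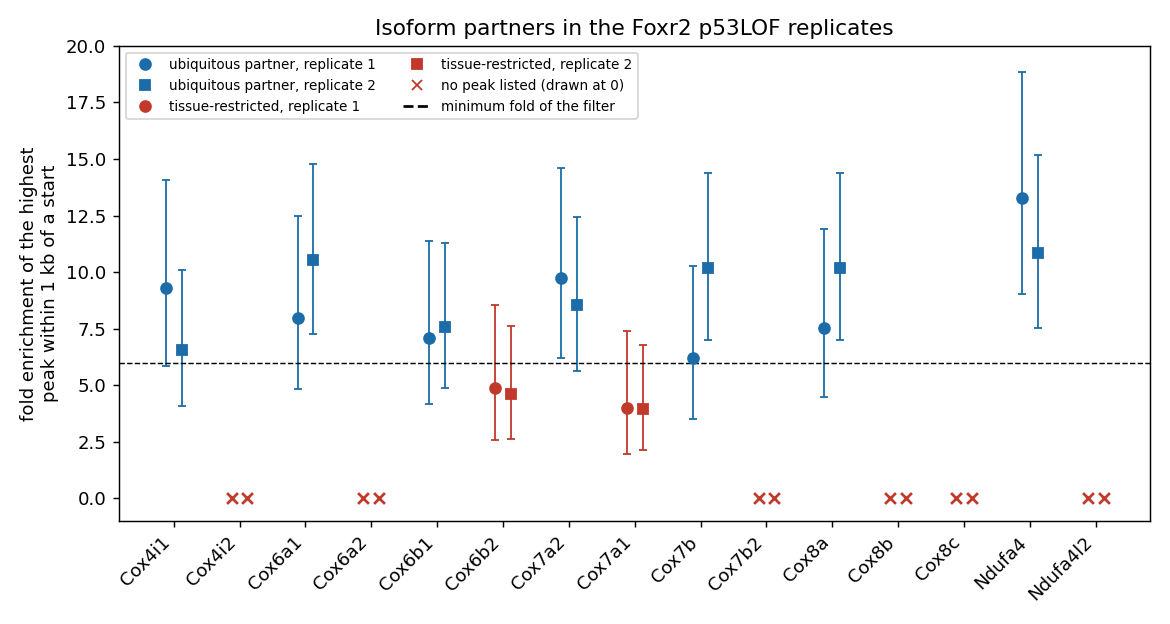
Fold enrichment of the highest listed peak within 1 kb of a start in Foxr2 p53LOF replicates 1 (circles) and 2 (squares) for ubiquitous isoforms (blue) and tissue-restricted isoforms (red) of complex IV subunits. Bars are exact 95% Poisson intervals, crosses at 0 stand for no listed peak, and the dashed line is the minimum fold of 6. The 7 ubiquitous genes lie above the line in both replicates, and the 2 restricted genes with peaks, Cox6b2 and Cox7a1, lie below it.

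The base composition of the promoters moved with this contrast. CpG-rich promoters, those with over 55% GC and an observed to expected CpG ratio above 0.6 in the 500 bp around the start, had a site at 66.7% of all protein-coding nuclear genes, and other promoters at 17.2%. The restricted isoforms were all in the second class, with ratios of 0.158 to 0.486, and 5 of the 7 ubiquitous partners were in the first, with ratios of 0.621 to 1.05 over the 7. Among the other respiratory chain genes both classes had a site at most genes. With the restricted isoforms left out, 55 of 67 genes with a CpG-rich promoter (82.1%) and 17 of 19 with another promoter (89.5%) had a site. These 19 are unlike the restricted isoforms, since most had ratios above 0.6 and missed the first class on GC alone. Examples are Ndufs7 (ratio 1.15, 49.4% GC) and Uqcr10 (0.893, 51.2% GC). Only Atp5f1 (0.353) and Atp5j2 (0.157), both with a site, had ratios of 0.486 or less. CpG content and restricted use go together in these 15 genes, and the part of each was not tested.

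Sharing a start region with another gene also moved with the count. Another protein-coding gene had a start within the window of 35 respiratory chain genes, and 32 of these had a site (91.4%), against 75.9% of all genes that share a window. Of the 59 genes alone in their window 40 had a site (67.8%), against 34% of all such genes. These 59 include all 8 tissue-restricted isoforms, and without them 40 of 51 had a site. Of the high members named above, 6 shared their window: Ndufb5 with Mrpl47, a protein of the mitochondrial ribosome, Ndufa11 with Vmac, Atp5j with Gabpa, the DNA-binding subunit of GABP, Uqcr10 with Zmat5, Atp5f1 with Wdr77 and Uqcrh with Lrrc41. A peak at such a start cannot be given to either gene. Atp5g2, Atp5g1 and Uqcrq were alone.

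**Figure D4:**
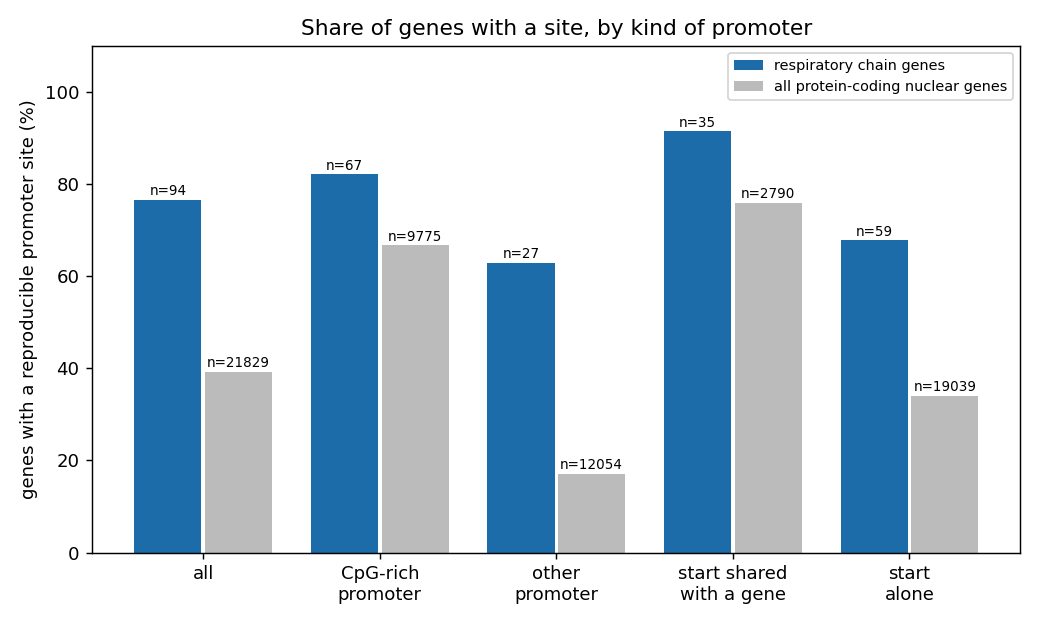
Percentage of genes with a reproducible promoter site among respiratory chain genes (blue) and all protein-coding nuclear genes (grey), with the number of genes above each bar, for all genes and by CpG content and sharing of the start region. The respiratory chain bar is the higher in each pair, from 76.6% against 39.3% for all genes to 63.0% against 17.2% for promoters that are not CpG-rich.

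Besides the restricted isoforms, 14 respiratory chain genes had no site, and all of them had a listed peak in at least 1 replicate. Replicate 1 alone passed the filter at 4 of them and replicate 2 alone at 4. The genes that passed in replicate 1 were Atp5g3 (7.95, with 5.91 in replicate 2), Ndufa8 (7.07 and 5.91), Uqcrc2 (7.95 and 5.59) and Atp5mpl (6.19 and 5.91). Those that passed in replicate 2 were Ndufv1 (4.86 in replicate 1 and 8.54), Atp5k (3.98 and 6.90), Ndufb8 (5.74 and 6.90) and Uqcrc1 (5.30 and 6.57). Ndufv1 is the core subunit that takes electrons from NADH, and Uqcrc1 and Uqcrc2 are the large core proteins of complex III.

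The other 6 passed in neither replicate. Ndufa1, a complex I subunit encoded on the X chromosome, had folds of 5.74 and 4.93, and Ndufs5 had 5.74 and 5.26. Ndufc2 had 3.98 and 5.59, and the assembly factors Ndufaf1 and Ndufaf6 had 4.42 and 4.93 and 5.30 and 5.59. Uqcrb, a small complex III subunit, was the only gene of the 14 with a peak in replicate 2 alone, of 4.93. The folds of these 14 genes lay around the minimum, where counting error is wide, as the interval of 3.50 to 10.3 at a fold of 6.19 shows.

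Summits lay on either side of the start and seldom just before it. The median distance between summit and start was 181 bp in replicate 1 and 188 bp in replicate 2, and both summits lay within 500 bp at 66 of the 72 genes. The 100 bp before the start held the summit of 1 gene in replicate 1 and of 3 in replicate 2. The 200 bp beyond that on the upstream side held 19 and 25, and the stretch from 100 to 300 bp downstream held 22 and 26. All genes with a site had the same sparse stretch, with 4.62% and 4.56% of their summits in the 100 bp before the start. The summits of the replicates were on the same side of the start at 55 of the 72 genes, with a median of 58 bp between them.

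**Figure D5:**
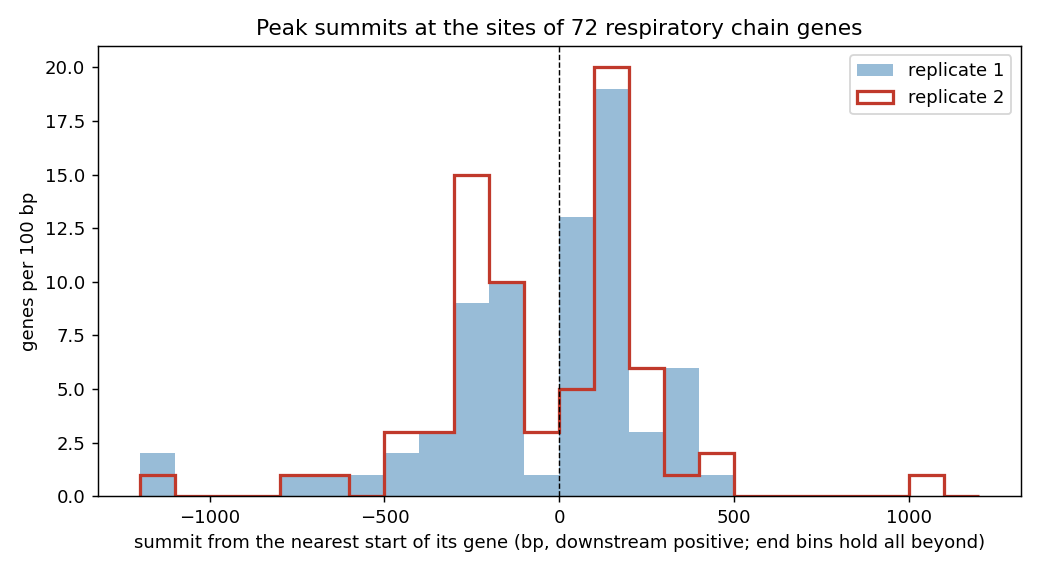
Distance of the peak summit from the nearest annotated start of the gene (bp, downstream positive) for the 72 respiratory chain genes with a site, in bins of 100 bp, for replicate 1 (filled) and replicate 2 (outline). Summits gather on both sides of the start, and the bin just upstream of it holds 1 gene in replicate 1 and 3 in replicate 2.

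Motifs of the known regulators were counted in the promoters. In the 500 bp around the commonest start, on both strands, NRF1 (GCGCATGCG) was found at 11 of 94 genes (11.7%), against 2.81% of all promoters. YY1 (AANATGGC) was found at 32 (34%, against 10.3%) and ETS (CCGGAAG) at 24 (25.5%, against 14.5%). The ETS share was close to that of all CpG-rich promoters, 24.2%, while those of NRF1 and YY1 in CpG-rich promoters were 4.60% and 13.0%. The motif of estrogen-related receptors (TCAAGGTCA) was found at 4 genes (4.26%, against 0.747%) and the cyclic AMP response element (TGACGTCA) at 6 (6.38%, against 2.69%). In the 250 bp before the start alone the shares were nearer to those of all promoters, with 4.26% against 2.10% for NRF1, 7.45% against 3.69% for YY1, 8.51% against 8.24% for ETS and 1.06% against 0.431% for estrogen-related receptors. No share was tested.

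The remaining motifs were counted in the same way. The GC box (GGGCGG) was at 58.5% against 53.1%, the CCAAT box at 41.5% against 48.4%, the E-box (CACGTG) at 11.7% against 10.3% and the TATA box (TATAAA) at 13.8% against 16.3%. The forkhead motif (TGTTTAC), of the family to which Foxr2 belongs, was at 5 genes (5.32%, against 4.23%), of which 4 had a site. The MEF2 motif was found at 1 member, Cox6a2 (1.06%, against 0.577%).

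The ETS, NRF1 or YY1 motif was found at 45 of the 72 genes with a site (62.5%) and at 8 of the 22 without (36.4%), against 38.5% of all genes with a site. Taken singly, ETS was at 21 of the 72 and 3 of the 22, and YY1 at 28 and 4. NRF1 was at 8 and 3, a lower share at the genes with a site. The 22 include the 8 restricted isoforms. Of the isoforms, 5 of the 7 ubiquitous partners and 1 of the 8 restricted genes had at least 1 of these motifs, and ETS was found at 4 and 0. The median lower fold was 8.84 at the genes with an ETS motif and 9.86 at those without, 8.62 and 9.86 for NRF1, and 9.72 and 9.57 for YY1. Over all genes with a site these medians were 10.2 and 10.2 for ETS, 10.2 and 10.2 for NRF1, and 10.6 and 9.86 for YY1. Among the members the medians were 13.0 with and 9.28 without an E-box (8 genes with it), 11.7 and 9.50 for the cyclic AMP response element (6 genes), 11.0 and 9.28 for the TATA box (11 genes), and 10.2 and 9.72 for the estrogen-related receptor motif (3 genes). Over all genes with a site they were 10.8 and 9.72, 10.5 and 10.2, 9.72 and 10.2, and 8.84 and 10.2, so the last 2 motifs ran the other way there. Members with a forkhead motif (4 genes) had a median of 8.69, against 9.79 without. The medians were 9.50 and 9.94 for the GC box, and 9.72 and 9.57 for the CCAAT box. Over all genes with a site these 3 motifs had 9.86 and 10.2, 10.2 and 9.72, and 10.2 and 9.86. None of these differences was tested. The ETS matches lay near the start, with 24 of 30 within 100 bp of it. A match says only that these letters are present, and none of these factors was measured.

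Most genes that assemble the chain also had a site. Of 37 assembly factors outside the symbol rule, 33 had a site, against 39.3% of all genes and 66.7% of those with a CpG-rich promoter. Most of the 37 had a CpG-rich promoter. The 33 had a median lower fold of 9.72, against 10.2 over all genes with a site. Atpaf2, an assembly factor of complex V, was the highest at 31.4 and 27.3, at a start region shared with Gid4. Those without a site were Atpaf1 (4.86 and 4.60), Nubpl (5.30 and 4.60), Pet100 (4.42 and 6.24) and Cox20. Cox20 had the tallest peaks, 43.3 and 44.0, but its replicate 2 peak of 15576 bp exceeded the length limit.

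Of 13 regulators of respiratory genes, 12 had a site, against 39.3% of all genes and 66.7% of those with a CpG-rich promoter. Most of the 13 had a CpG-rich promoter. The 12 had a median lower fold of 14.6, against 10.2 over all genes with a site. Nrf1 itself had folds of 16.8 and 18.1. The GABP subunits Gabpa, Gabpb1 and Gabpb2 had 22.1 and 25.6, 9.28 and 10.2, and 17.7 and 18.4, the first at the start shared with Atp5j. Among the mitochondrial transcription factors, Tfb2m had 23.9 and 29.2, at a start region shared with Cnst, and Tfb1m 17.2 and 21.4, while Tfam had 7.07 and 10.8 and the mitochondrial RNA polymerase Polrmt only 6.19 and 7.56.

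The PGC-1 coactivators were divided. Pprc1 had folds of 22.1 and 29.9 and Ppargc1b 11.0 and 11.5, whereas Ppargc1a, the cold- and exercise-induced member, had no peak within 1 kb and peaks of 3.53 and 5.26 at 1372 bp and 1289 bp. Esrra, which encodes an estrogen-related receptor, had 11.0 and 17.1, and Yy1 had 12.4 and 17.1. Cytochrome c showed the same split as the complex IV isoforms: the somatic gene Cycs had folds of 14.6 and 19.4, and the testis gene Cyct had no peak within 1 kb.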

How the data were processed

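CUT&RUN peak lists of 4 libraries were used. Per the methods, the authors trimmed reads with Trimmomatic 0.39, aligned them to mm10 with BWA 0.7.17, removed duplicates with Picard 2.26.6 and called peaks library by library with MACS2 2.2.7.1. The deposited fold is the ratio that MACS2 wrote for the authors, (fragments at the summit + 1)/(background + 1). The deposited −log10 p-values and q-values come from the same caller, and the deposited score repeats the −log10 q, multiplied by 10 and truncated. Each fold is relative to the background of its own library, so folds of the replicates are set side by side as values, the lower fold ranks genes, and a difference between replicates can also reflect the libraries.

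The background was recovered from the folds and p-values of peaks with a fold of 30 or less, and all of these gave whole fragments within 0.02. This gives the fragments behind each fold, and higher folds were converted with the same background. The peak filter of the methods was then applied: control overlap of 10 bp, −log10 q and fold above 6, length under 10000 bp. The later step of the methods that keeps only regions also open in single-nucleus ATAC data was not applied, since those data were not used here. A site needed at least 1 bp covered by both replicates. A gene takes its site with the highest lower fold. Genes are counted by symbol, with the 2 entries of Atp5o as 1. Named genes are the 10 highest, the 5 lowest, those without a site, the isoforms, the cytochrome c genes, the regulators and the assembly factors without a site, and Atpaf2, Atp5b, Sdha, Sdhb, Ndufs6, Ndufaf7 and Ndufaf8, which were added after their values were seen. Some results for single genes are left out and not reported here. Motifs were searched in the 250 bp before and after the start. Members and lists were chosen with earlier results of these data known. The steps were checked on simulated data (Python 3.11.15, numpy 2.4.6, pandas 2.3.3, scipy 1.17.1). Alternatives covered the window, the filter, the overlap, the transcripts, shared starts, the motif window and each replicate left out.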

Additional observations from a re-analysis of the deposited data

How the results depend on the processing

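The 72 respiratory chain genes with a site became 33 with a minimum fold of 10 (4316 of all genes, 19.8%) and 40 with genes that share a start region left out. The 7 ubiquitous isoforms became 1 with a minimum fold of 10, Ndufa4, and 5 with a minimum −log10 q of 10, without Cox6b1 and Cox7b. The 0 tissue-restricted isoforms became 1 with a window of 2 kb (Ndufa4l2) and 2 with no minimum on fold or q (Cox6b2 and Cox7a1). With no minimum, 87 respiratory chain genes had a site, against 50.7% of all genes. The median lower fold of 9.72 became 13.3 with a minimum fold of 10. Leaving out a replicate gave 72 to 76 genes with a site and a median of 9.72 to 11.2, the last without Foxr2 p53LOF replicate 1. In the 250 bp before the start only, the share with a motif was 8.51% for ETS, 4.26% for NRF1, 7.45% for YY1, 42.6% for the GC box and 1.06% for the estrogen-related receptor motif, against 8.24%, 2.10%, 3.69%, 40.1% and 0.431% of all promoters. The cause was not tested.

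The other alternatives gave 65 to 73 genes with a site. No paired analysis was possible because the results are counts and values from no fit, and the only test permutes libraries. Folds near 6 rest on 13 to 20 fragments, so single genes near the minimum could pass or fail by counting error alone.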
